A study of Mus musculus with 17 samples.

Results

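Osteopontin (Spp1), fibronectin (Fn1) and the integrin subunits Itgav, Itga4, Itga5, Itga9, Itgb1, Itgb3 and Itgb5 are described here, 9 of the 25198 genes in the count table, matched by gene symbol. Spp1 was chosen by measured values: its level was low with the inhibitor and differed between batches in these very data. Its values are therefore given as a description, with no test. The other 8 genes were taken as its fellow ligand and the receptor subunits of both ligands. They and the gene lists read further on were chosen with earlier results of these data known. Their calls are therefore not those of genes picked without sight of the data.

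RNA was sequenced by Smart-Seq2, a method that copies full-length transcripts and uses no molecular identifiers, from antral follicles of CD1 mice, an outbred strain. There were 11 libraries labelled Control (6 in batch 1 and 5 in batch 2) and 6 labelled Tyrphostin (3 in each batch), the batch being the number that the labels give. Per the labels, each sample pooled 3 follicles, the material was 16 days old, and follicles had grown for 8 days in eIVFG, an encapsulated in vitro follicle culture. The labels then describe 4 h with hCG, a gonadotropin that starts ovulation through the luteinizing hormone receptor, and 10 µM Tyrphostin-AG1478 in DMSO, an inhibitor of the kinase of the epidermal growth factor receptor. That wording is the same for all 17 libraries, so whether Control follicles received hCG and DMSO is not stated. Whether libraries came from separate animals or cultures is not stated either, and the p-values measure only the spread between these libraries.

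Osteopontin is a secreted phosphoprotein and fibronectin a large matrix glycoprotein. Both carry an arginine-glycine-aspartate (RGD) motif that is read by integrins, receptors made of an alpha and a beta subunit. The alpha subunit sets much of the ligand choice: alpha-5 pairs with beta-1 as the classical fibronectin receptor, alpha-v pairs with beta-1, beta-3 or beta-5, and alpha-4 and alpha-9 pair with beta-1 and bind other sites in both ligands. In the ovary, ovulation is accompanied by remodelling of the matrix around and inside the follicle.

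In GRCm38, with positions from GENCODE M21, Spp1 lies at chr5:104435118-104441050 (plus strand) and Fn1 at chr1:71585520-71653200 (minus strand). The alpha subunit genes are Itgav at chr2:83724397-83806916 (plus), Itga4 at chr2:79255426-79333123 (plus), Itga5 at chr15:103344286-103366763 (minus) and Itga9 at chr9:118606690-118901003 (plus). The beta subunit genes are Itgb1 at chr8:128685654-128733200 (plus), Itgb3 at chr11:104608000-104670476 (plus) and Itgb5 at chr16:33829665-33949338 (plus). An exon of Fn1 overlaps the antisense gene Apol7d (0 to 27 counts a library) and an exon of Itga4 overlaps Cerkl (0 to 4 counts), also on the opposite strand. Exons of Itgav and Itga9 overlap Gm13684 and Gm2415 on the opposite strand, and an exon of Spp1 overlaps Gm42793 on the same strand. Neither Gm13684, Gm2415 nor Gm42793 is in the count table. The strand setting of the counting is not given in the sources used here, so reads in the opposite-strand overlaps cannot be told apart. Those in the same-strand overlap of Spp1 cannot be told apart either.

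RefSeq promoter windows (GRCm38.p6, the 250 bases before an annotated start) were available for 7 of the 9 genes. For Spp1 the table holds 2 windows, and the one nearest to the start of the GENCODE gene is shown. The other, at chr5:104435942-104436191, holds 1 match, to ETS, at bases -161 to -156 from its own start. Windows of Spp1, Itga5 and Itgb1 are shown, because the lowest treatment ratios of the 9 genes were in Spp1 and Itga5, while Itgb1, the partner of alpha-5, gave a ratio near 1. Capitals mark matches, on either strand, to ETS (AGGAAG, in 29.5% of all 32851 windows), RUNX (ACCACA, 14.0%) or TEAD (GGAATG, 12.6%) letters. AP-1 (TGANTCA, 6.75%) and the cAMP response element (TGACGTCA, 1.55%) were also searched and gave no match in the 3 windows. No 2 of the marked matches overlap.
Spp1, chr5:104434861-104435110, plus strand: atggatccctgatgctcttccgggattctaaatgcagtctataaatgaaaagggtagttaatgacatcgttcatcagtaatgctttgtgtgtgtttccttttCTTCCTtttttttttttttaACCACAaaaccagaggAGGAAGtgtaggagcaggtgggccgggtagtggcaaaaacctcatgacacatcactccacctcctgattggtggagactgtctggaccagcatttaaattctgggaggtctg
Itga5, chr15:103366792-103367041, minus strand: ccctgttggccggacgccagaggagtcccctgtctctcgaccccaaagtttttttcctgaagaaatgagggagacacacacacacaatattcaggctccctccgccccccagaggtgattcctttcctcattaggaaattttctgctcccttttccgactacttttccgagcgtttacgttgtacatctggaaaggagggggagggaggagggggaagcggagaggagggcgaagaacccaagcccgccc
Itgb1, chr8:128685404-128685653, plus strand: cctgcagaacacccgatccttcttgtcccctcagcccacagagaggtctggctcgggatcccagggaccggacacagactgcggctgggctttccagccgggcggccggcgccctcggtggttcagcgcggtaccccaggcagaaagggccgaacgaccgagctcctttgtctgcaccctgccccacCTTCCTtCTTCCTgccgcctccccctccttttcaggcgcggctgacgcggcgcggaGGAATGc
The Spp1 window shown holds ETS matches at bases -148 to -143 and -112 to -107 from the start and a RUNX match at -128 to -123. The Itgb1 window holds ETS matches at -63 to -58 and -56 to -51 and a TEAD match at -7 to -2. The Itga5 window holds none of the 5 motifs, which says only that these letters are not in these 250 bases.

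The shallowest library was Control 6, with 1820545 counts, and the deepest was Control 8, with 8291024. Levels are in CPM, counts scaled by TMM to a common library total, and 3 counts correspond to 0.336 CPM in Control 8 and 1.64 CPM in Control 6. Of the marker lists read here, that of granulosa cells, the follicle's somatic cells, had the highest sum in every library (52514.5 to 81255.7 CPM). The inhibin genes Inha (33998 to 52659 CPM) and Inhba (17596 to 28600 CPM) were abundant. Fshr (at most 21.6 CPM) and Amhr2 (at most 18.8 CPM) were low, and Foxl2 (at most 4.66 CPM) and Amh (at most 1.08 CPM) were near 0. Mitochondrially encoded genes took 0.175% of the counts in Control 7 and 1.74% to 2.83% in the other Control libraries. In Tyrphostin libraries the share was 1.55% to 2.50% in batch 1 and 0.781%, 1.32% and 0.797% in Tyrphostin 4, 5 and 6, below every Control library except Control 7. The part of this difference in the batch 2 results was not tested. For treatment, 3 of 13 macrophage, 2 of 7 endothelial, 8 of 9 theca and stroma and 8 of 8 oocyte markers were tested. None passed edgeR's quasi-likelihood test at an adjusted p under 0.05, beside 6.25% of all tested genes called lower and 4.35% higher. With so few markers, 0 calls do not show that these cell types were unchanged. None of the 4 surface epithelium markers was high enough to be tested. Of the granulosa list 7 of 9 were tested, and 3 were called higher with Tyrphostin, beside 4.35% of all tested genes: Cyp19a1, aromatase (2.35 on the log2 scale), Nr5a2 (2.18) and Fshr (0.83, lost in 10 of 27 other fits).

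Spp1 was lower in the Tyrphostin libraries of both batches, and its level in Control libraries differed widely between batches. In batch 1 the 6 Control libraries held 45.3, 31.4, 39.5, 85.0, 59.0 and 45.4 CPM of Spp1, and the 3 Tyrphostin libraries 1.15, 2.02 and 1.95 CPM, from 8, 13 and 10 counts. The groups did not overlap in that batch, as in 6.46% of its 9423 tested genes in this direction, and the lowest Control library lay above the highest Tyrphostin library by more than 10 times. In batch 2 the 5 Control libraries held 1632, 1390, 139, 2252 and 164 CPM, and Tyrphostin 4, 5 and 6 held 59.3, 302 and 8.77 CPM. Here Control 7, 8 and 10 were high, Control 9 and 11 were lower, and Tyrphostin 5 lay above the 2 lower Control libraries. Every Control library of batch 2 exceeded every one of batch 1, as in 3.98% of 6680 tested genes.

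The log2 fold change of Spp1 between Tyrphostin and Control, with batch as a term, was -3.84 ± 0.82 (SE, 11 Control and 6 Tyrphostin libraries), the second lowest among 9603 genes. It was -4.89 ± 0.39 within batch 1 and -3.18 ± 1.25 within batch 2. Leaving out Tyrphostin 5 moved the overall value to -4.96 and that of batch 2 to -5.05. Leaving out Tyrphostin 6 moved them to -3.60 and -2.62. Without a batch term the value over all libraries was -3.11. Among Control libraries Spp1 was higher in batch 2 than in batch 1 by 4.49 ± 0.68 on the log2 scale. In bulk samples of this kind, fewer cells of a type and less RNA per cell cannot be told apart.

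Markers of other cell types also differed between these libraries. The summed level of the 9 theca and stroma markers was 266 to 765 CPM in Control batch 1 and 273 to 420 CPM in Tyrphostin batch 1. In Control 7 to 11 it was 2163, 2027, 443, 1199 and 491 CPM, and in Tyrphostin 4 to 6 it was 819, 3090 and 1089 CPM. Within Control batch 2 the 3 libraries with high Spp1 were thus the 3 with high theca and stroma sums, and Tyrphostin 5 had the highest sum of all 17 libraries. In the other 2 Tyrphostin libraries of batch 2 the sums exceeded those of Control 9 and 11 while Spp1 was lower than in both. In edgeR 2 of the 8 tested theca and stroma markers were called lower with Tyrphostin in batch 1 (3.79% of all tested genes) and 0 in batch 2 (0.427%). The directions differed between batches: 7 of the 8 were negative in batch 1 (median log2 fold change -1.05) and all 8 positive in batch 2 (median 0.72). Over both batches 4 were positive and 4 negative (median 0.02). In Control batch 2 against batch 1, 3 of the 8 were called higher (7.26% of all tested genes) and 1 lower (6.77%).

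The summed level of the 13 macrophage markers was 21.1 to 73.9 CPM in Control batch 1 and 25.0 to 59.5 CPM in Tyrphostin batch 1. It was 317, 500, 129, 65.9 and 60.0 CPM in Control 7 to 11 and 59.0, 904 and 49.1 CPM in Tyrphostin 4 to 6. Lyz2, a lysozyme gene, made up most of the highest sum, with 819 CPM in Tyrphostin 5. Adgre1 (at most 6.74 CPM), Ptprc (at most 2.70 CPM) and Aif1 (at most 0.809 CPM) were low. Their highest values were still in Tyrphostin libraries, above Control highs of 3.83, 1.28 and 0.282 CPM. Every marker of this list except Cd14 and Mrc1 had at least 1 Tyrphostin library above all Control libraries. Only Tyrobp and Aif1 had 2 such libraries, and every other such marker had 1. The share of all genes with at least 1 such library was not computed, so this is no result about the Tyrphostin group. The part of these cell types in the Spp1 values was not tested.

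**Figure D1:**
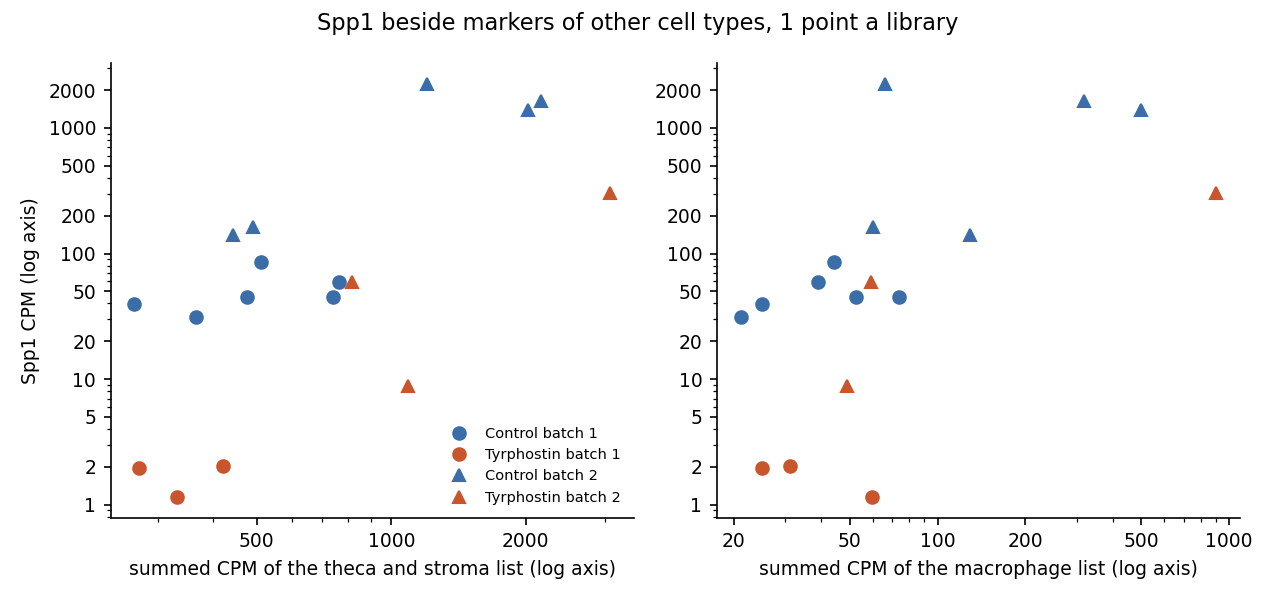
Spp1 level (CPM, log axis) against the summed level of the theca and stroma markers (left) and the macrophage markers (right), both in CPM on log axes, with 1 point a library, Control in blue, Tyrphostin in orange, circles for batch 1 and triangles for batch 2. Control libraries with 1390 to 2252 CPM of Spp1 have theca and stroma sums of 1199 to 2163 CPM, and Tyrphostin 5, with 302 CPM of Spp1, has the highest value on both marker axes.

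Fn1, the other ligand, was lower in Control libraries of batch 2 than of batch 1, and its treatment difference was small. Control libraries of batch 1 held 138, 75.0, 77.7, 82.9, 94.0 and 88.7 CPM of Fn1, and those of batch 2 held 40.9, 62.0, 55.2, 53.3 and 36.5 CPM. All 5 of batch 2 lay below all 6 of batch 1, as in 4.78% of 6680 tested genes, and Control 1 stood above the rest. The Tyrphostin libraries held 83.6, 37.4 and 47.8 CPM in batch 1 and 41.2, 62.8 and 22.6 CPM in batch 2. They overlapped the Control libraries of their batch in both batches, with 2 of 3 below all Control libraries in batch 1 and 1 of 3 in batch 2.

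Between Control batches the log2 fold change of Fn1 was -0.87 ± 0.21 (edgeR, adjusted p = 0.0109), a fall of 1.83 times. Treatment gave -0.48 ± 0.22, with an approximate 95% interval of -0.91 to -0.06 and an adjusted p of 0.176 in edgeR. The value was -0.71 ± 0.28 within batch 1 (edgeR, adjusted p = 0.138) and -0.24 ± 0.31 within batch 2. The treatment difference of Fn1 passed the threshold only without Tyrphostin 5 (-0.68, edgeR adjusted p = 0.0458) among the 17 fits that left out 1 library. In batch 1 it passed without Tyrphostin 1 (-1.11, edgeR adjusted p = 0.0349) and with the replicate number of 3 Control and 3 Tyrphostin libraries as a block (-0.80, edgeR adjusted p = 0.0255).

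**Figure D2:**
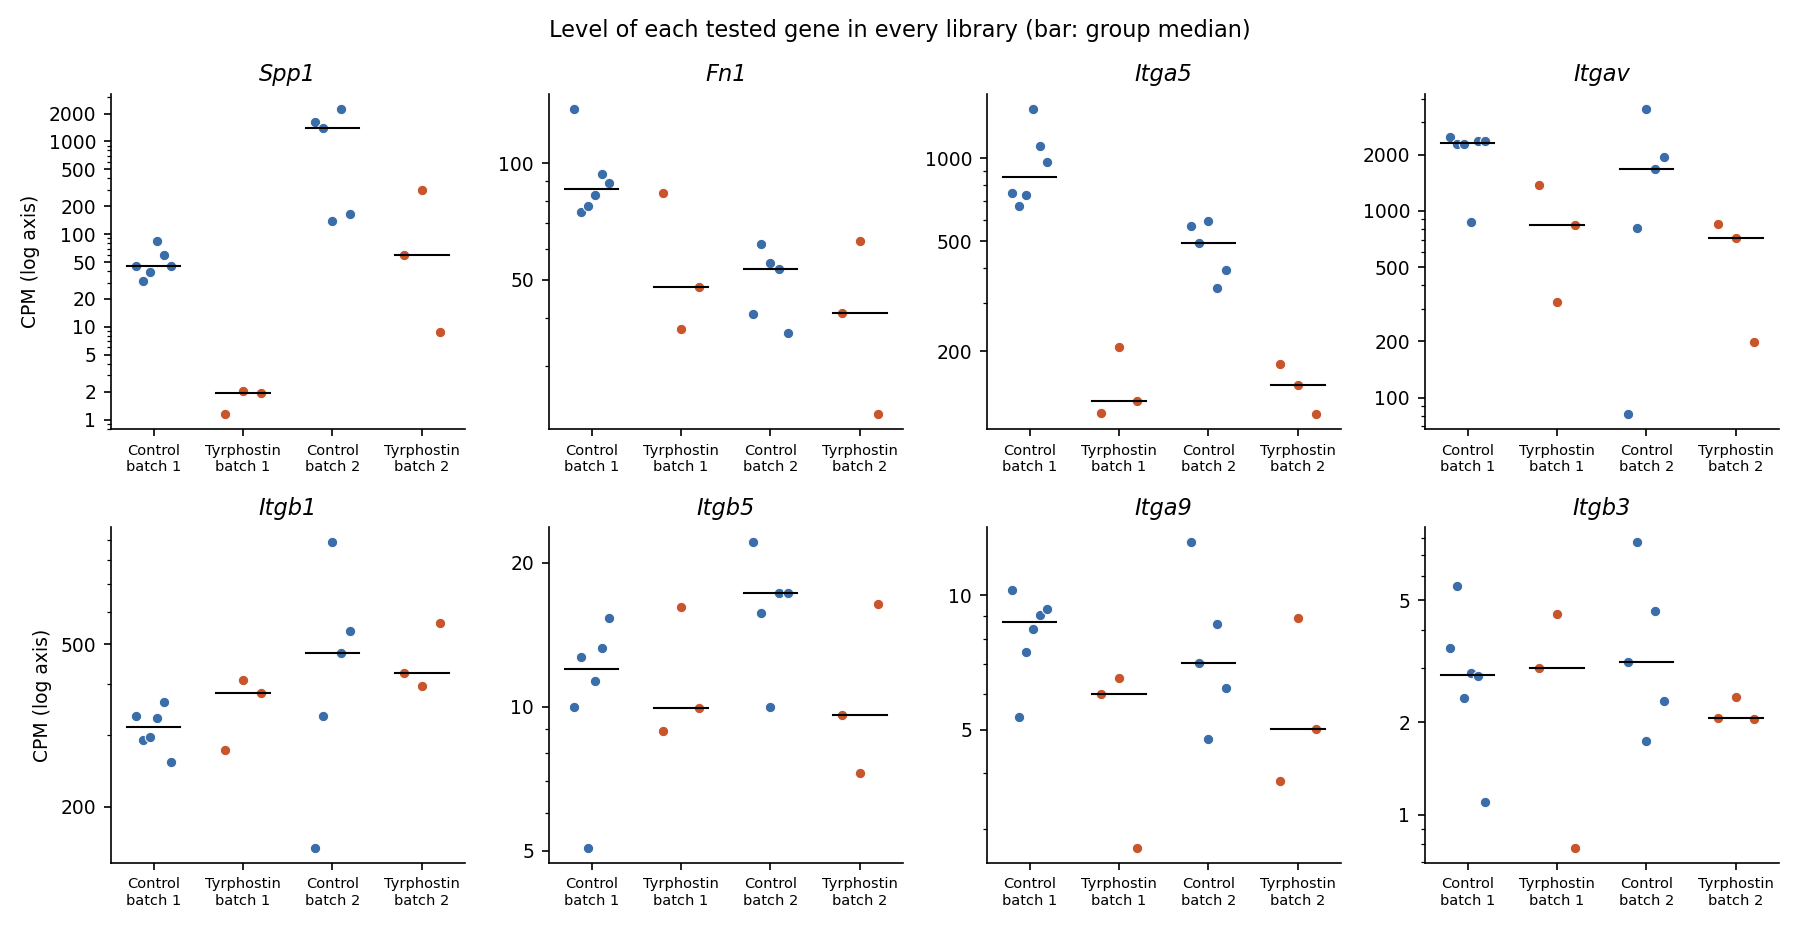
Level of the 8 tested genes in each of the 17 libraries (CPM, log axis), by treatment and batch, with 1 point a library and a bar at the group median. Itga5 lies lower in all 6 Tyrphostin libraries (118 to 208 CPM) than in all 11 Control libraries (339 to 1512 CPM), Spp1 spans 1.15 to 2252 CPM, and for Itgb1 the groups overlap.

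Among the receptor subunits, Itga5 fell with Tyrphostin, and no other subunit passed the test. Of the 7 genes tested besides Spp1, 1 was called lower and 0 higher, beside 6.25% of all 9603 tested genes called lower and 4.35% called higher. The fold change was negative in 6 of these 7 genes and positive in Itgb1. An unadjusted p under 0.05 was reached by 4 of them, beside 23.7% of all tested genes. Their median log2 fold change was -0.52, against 0.00 over all tested genes.

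Itga5, the alpha subunit of the classical fibronectin receptor, was the gene with the clearest separation. Control libraries of batch 1 held 747, 674, 736, 1512, 1108 and 966 CPM of Itga5, and Control libraries of batch 2 held 571, 492, 592, 339 and 394 CPM. The Tyrphostin libraries held 119, 208 and 132 CPM in batch 1 and 179, 151 and 118 CPM in batch 2. All 6 Tyrphostin libraries lay below all 11 Control libraries, a separation in that direction found in 96 of 9603 tested genes (1%). Such separation within batch 1 alone was found in 6.46% of tested genes and within batch 2 alone in 4.89%. The Tyrphostin values of the 2 batches interleaved. Every Control library of batch 2, in contrast, lay below every one of batch 1, as in 4.78% of 6680 tested genes.

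The log2 fold change of Itga5 was -2.15 ± 0.25 (11 Control and 6 Tyrphostin libraries, edgeR adjusted p = 4.54e-06), a level 4.44 times lower with Tyrphostin. Within batch 1 it was -2.64 ± 0.32 (edgeR, adjusted p = 6.15e-05), where 3.79% of tested genes were called lower. Within batch 2 it was -1.67 ± 0.28 (edgeR, adjusted p = 0.0249), where 0.427% were called lower. The difference between the batches' effects was 0.97 ± 0.40, with an unadjusted p of 0.0252 and an adjusted p of 1.00 in edgeR, so it did not pass. With the low-count filter no gene passed that interaction test in edgeR, DESeq2 or limma-voom (without it, 79 passed in edgeR), and 342 genes (3.56%) had an unadjusted p under 0.05 in edgeR.

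Leaving out any 1 of the 17 libraries gave -2.27 to -2.02 for Itga5, with adjusted p from 2.57e-06 to 3.15e-05 in edgeR. In batch 2 alone the call was lost in edgeR without Control 8 (adjusted p = 0.0737), Control 9 (0.0576), Tyrphostin 4 (0.0873), Tyrphostin 5 (0.148) or Tyrphostin 6 (0.175). Its level in Control libraries fell by 0.98 ± 0.24 on the log2 scale from batch 1 to batch 2 (edgeR, adjusted p = 0.0139). In that comparison 2 of the 6 genes tested besides Spp1 were called lower, Fn1 and Itga5, beside 6.77% of 6680 tested genes, and 0 were called higher, beside 7.26%.

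Itgav, the alpha subunit shared by several receptors of both ligands, varied widely among Control libraries. It stood at 2489, 2279, 2282, 878, 2375 and 2366 CPM in Control batch 1 and at 81.6, 809, 3528, 1674 and 1945 CPM in Control batch 2. Tyrphostin libraries held 1374, 327 and 843 CPM of Itgav in batch 1 and 849, 720 and 200 CPM in batch 2. All 6 lay below the Control median of 2279 CPM, but none lay below Control 7, the library with 81.6 CPM and the low mitochondrial share.

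The log2 fold change of Itgav was -1.38 ± 0.55, with an approximate 95% interval of -2.45 to -0.31 and an adjusted p of 0.128 in edgeR. Without Control 7 it was -1.51 ± 0.39 and passed (edgeR, adjusted p = 0.0151). Values of -1.31 ± 0.40 (edgeR, adjusted p = 0.0653) within batch 1 and -1.45 ± 0.91 within batch 2 were of like size. In batch 1 Itgav passed in edgeR without Control 4 (adjusted p = 0.0223) or Tyrphostin 1 (0.0193), without a low-count filter (0.000437) and with the replicate block (0.0090). It also passed there in DESeq2 (adjusted p = 0.0140) and limma-voom (adjusted p = 0.0372). Its level did not differ between Control batches beyond the spread (-0.36 ± 0.60).

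The remaining alpha subunits were scarce. Itga9, which pairs with beta-1, held 4.78 to 13.1 CPM in Control libraries (median 8.41) and 2.73 to 8.89 CPM in Tyrphostin libraries (median 5.53), with 2 of 6 Tyrphostin libraries below all Control libraries. Its log2 fold change was -0.58 ± 0.25 (edgeR, adjusted p = 0.165). Itga4 reached at most 4 counts in any library. It was at or under 3 counts in 10 of 11 Control and 5 of 6 Tyrphostin libraries and was not tested, so no difference was detectable at this depth.

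Itgb1, the common beta subunit, gave no treatment difference that passed the test. Control libraries held 334, 292, 297, 329, 360 and 257 CPM of Itgb1 in batch 1 and 159, 333, 886, 474 and 538 CPM in batch 2. Tyrphostin libraries held 276, 409 and 380 CPM in batch 1 and 424, 395 and 562 CPM in batch 2, all inside the Control range over both batches. Within batch 1, 2 of the 3 lay above all 6 Control libraries. Control 7 was the lowest and Control 9 the highest of all libraries. The log2 fold change was 0.07 ± 0.23, with an approximate 95% interval of -0.39 to 0.53 (edgeR, adjusted p = 0.897), and its sign changed without Control 7. Between Control batches Itgb1 differed by 0.65 ± 0.31 (edgeR, adjusted p = 0.181), and by 0.88 without Control 7 (edgeR, adjusted p = 0.0149).

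Itgb5 and Itgb3, the beta subunits that pair with alpha-v, were also low. Itgb5 held 5.08 to 22.0 CPM in Control libraries (median 13.3) and 7.28 to 16.4 CPM in Tyrphostin libraries (median 9.78). Itgb3 held 1.09 to 7.73 CPM (median 2.90) and 0.780 to 4.51 CPM (median 2.24). The groups overlapped for both genes. The log2 fold changes were -0.24 ± 0.24 for Itgb5 (edgeR, adjusted p = 0.602) and -0.52 ± 0.37 for Itgb3 (edgeR, adjusted p = 0.422), with approximate 95% intervals of -0.71 to 0.23 and -1.25 to 0.20.

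**Figure D3:**
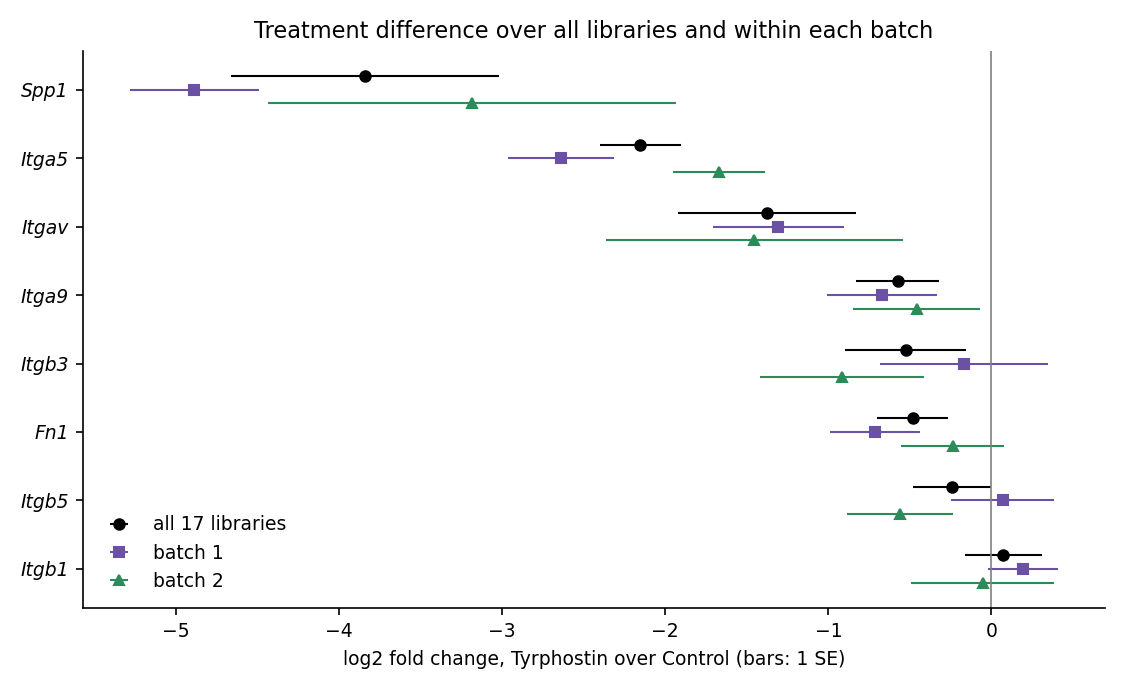
Log2 fold change between Tyrphostin and Control for the 8 tested genes over all 17 libraries (black circles), within batch 1 (purple squares) and within batch 2 (green triangles), with bars of 1 SE. Spp1 (-3.84) and Itga5 (-2.15) lie farthest from 0, and Itgb1 (0.07) lies at 0. Over all libraries and within batch 2 the bars are widest for Spp1, followed by Itgav (-1.38).

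Levels of different genes were set side by side only as CPM per kilobase of exon. In Control libraries the medians ran from Itgav (212, range 7.60 to 328) through Itga5 (137, 68.8 to 306), Itgb1 (81.5, 39.0 to 217), Spp1 (51.6, 19.0 to 1366), Fn1 (6.42, 3.12 to 11.8), Itgb5 (3.73, 1.43 to 6.21), Itga9 (1.09, 0.621 to 1.71) and Itgb3 (0.491, 0.186 to 1.31) to Itga4 (0.0193, 0 to 0.0855). Ranges of neighbours in this order overlapped except between Spp1 and Fn1 and between Itgb3 and Itga4. In Tyrphostin libraries Itgb1 came first (98.6, range 67.6 to 138 CPM per kilobase), followed by Itgav (72.7, 18.6 to 128), Itga5 (28.7, 24.0 to 42.1), Fn1 (3.81, 1.93 to 7.16) and Spp1 (3.27, 0.696 to 183). With the longest transcript as length, Itgav (111) came before Itgb1 (105) there too. By median over both batches, Itgav, Itga5 and Itgb1 were the most abundant of the 9 genes per length in both groups, and Itgb3 and Itga4 the least. In Control batch 2 alone Spp1 came first (median 844 CPM per kilobase, against 156 for Itgav, 116 for Itgb1 and 99.7 for Itga5), and it was the highest of the 9 in Control 7, 8 and 10 and in Tyrphostin 5.

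A ratio within a library needs no scaling between libraries. Itga5 over Itgb1, both per kilobase, was 1.85 to 3.80 in Control batch 1 and 2.97, 1.22, 0.552, 0.592 and 0.606 in Control 7 to 11. In Tyrphostin libraries it was 0.357, 0.420 and 0.288 in batch 1 and 0.349, 0.316 and 0.174 in batch 2. All 6 Tyrphostin ratios lay below all 11 Control ratios, and the gap was narrow in batch 2, where 3 Control libraries were close to 0.6. How often ratios of other gene pairs separate in this way was not computed. Itgav over Itgb1 ran from 0.195 to 3.49 in Control and from 0.135 to 1.89 in Tyrphostin libraries, and the groups overlapped.

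**Figure D4:**
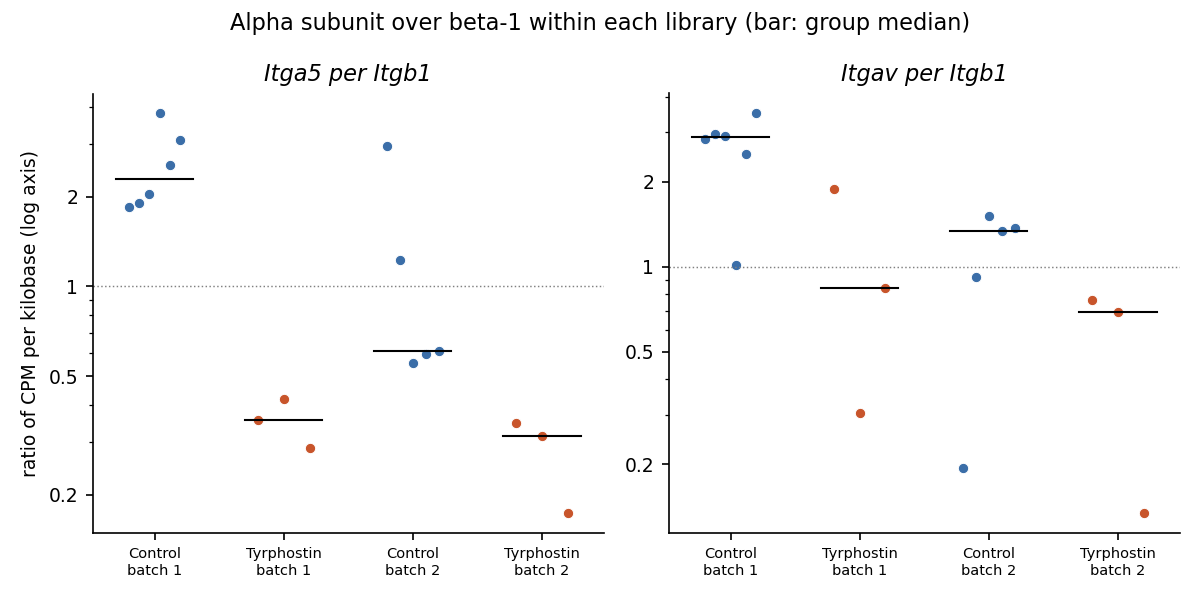
Ratio of Itga5 to Itgb1 (left) and of Itgav to Itgb1 (right) within each library, each gene as CPM per kilobase of exon, on log axes, with 1 point a library, a bar at the group median and a dotted line at a ratio of 1. The Itga5 ratios of Tyrphostin libraries (0.174 to 0.420) lie below those of Control libraries (0.552 to 3.80), and the Itgav ratios overlap.

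Other genes of the same system were read from lists. Of 21 other RGD-bearing or matrix ligands 14 were tested, and 1 was called lower and 0 higher (beside 6.25% and 4.35% of all tested genes), with a median log2 fold change of 0.03. The gene was Tnc, tenascin-C, a matrix glycoprotein of remodelling tissue. It held 50.9 to 112 CPM in Control libraries (median 71.3) and 13.2, 8.86, 12.1, 9.47, 10.8 and 10.6 CPM in Tyrphostin 1 to 6. All 6 lay below every Control library, as in 1% of all tested genes. Tnc fell by 2.85 ± 0.22 on the log2 scale (edgeR, adjusted p = 1.07e-08), by 2.71 within batch 1 and by 2.99 within batch 2. Among Control libraries it showed no batch difference past the threshold (edgeR, adjusted p = 0.722).

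Of 5 receptors outside the integrin family (Cd44 and the syndecans Sdc1 to Sdc4) all were tested, and 1 was called lower and 0 higher (6.25% and 4.35% of all tested genes). Their median log2 fold change was -0.55. Sdc1, syndecan-1, a cell surface proteoglycan that binds fibronectin, held 1249 to 3253 CPM in Control libraries (median 1602). Tyrphostin 1 to 6 held 171, 210, 97.2, 192, 251 and 165 CPM of Sdc1, all below every Control library, as in 1% of all tested genes. Its log2 fold change was -3.34 ± 0.28 (edgeR, adjusted p = 3.48e-08), with -3.50 in batch 1 and -3.17 in batch 2. Cd44, an osteopontin and hyaluronan receptor, gave -0.55 ± 0.31 (edgeR, adjusted p = 0.297).

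Of 19 other integrin subunits 6 were tested, and 1 was called lower and 0 higher (6.25% and 4.35% of all tested genes), with a median of -0.03. Itga2, the alpha subunit of a collagen receptor, held 771 to 1495 CPM in Control libraries (median 1080) and 1047, 242, 513, 646, 574 and 372 CPM in Tyrphostin 1 to 6. Tyrphostin 1 lay inside the Control range and the other 5 below it. Itga2 fell by 1.00 ± 0.24 on the log2 scale over both batches (edgeR, adjusted p = 0.00866). It did not pass within batch 1 (-0.87, edgeR adjusted p = 0.164) or batch 2 (-1.12, edgeR adjusted p = 0.112) alone.

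Of 12 enzymes that act on osteopontin or fibronectin 6 were tested, and 1 was called higher and 0 lower (4.35% and 6.25% of all tested genes), with a median of -0.40. Fam20c, the secretory pathway kinase that phosphorylates osteopontin, held 52.1 to 105 CPM in Control libraries (median 72.2) and 192, 184, 237, 94.7, 87.3 and 196 CPM in Tyrphostin 1 to 6. Tyrphostin 4 and 5 overlapped Control libraries over both batches together, and the other 4 lay above all of them. Both overlapping libraries lay above the 5 Control libraries of their own batch (52.1 to 75.9 CPM). Fam20c rose by 1.20 ± 0.18 on the log2 scale (edgeR, adjusted p = 8.30e-05). It rose by 1.40 in batch 1, and the value in batch 2 was 0.98 (edgeR, adjusted p = 0.171).

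**Figure D5:**
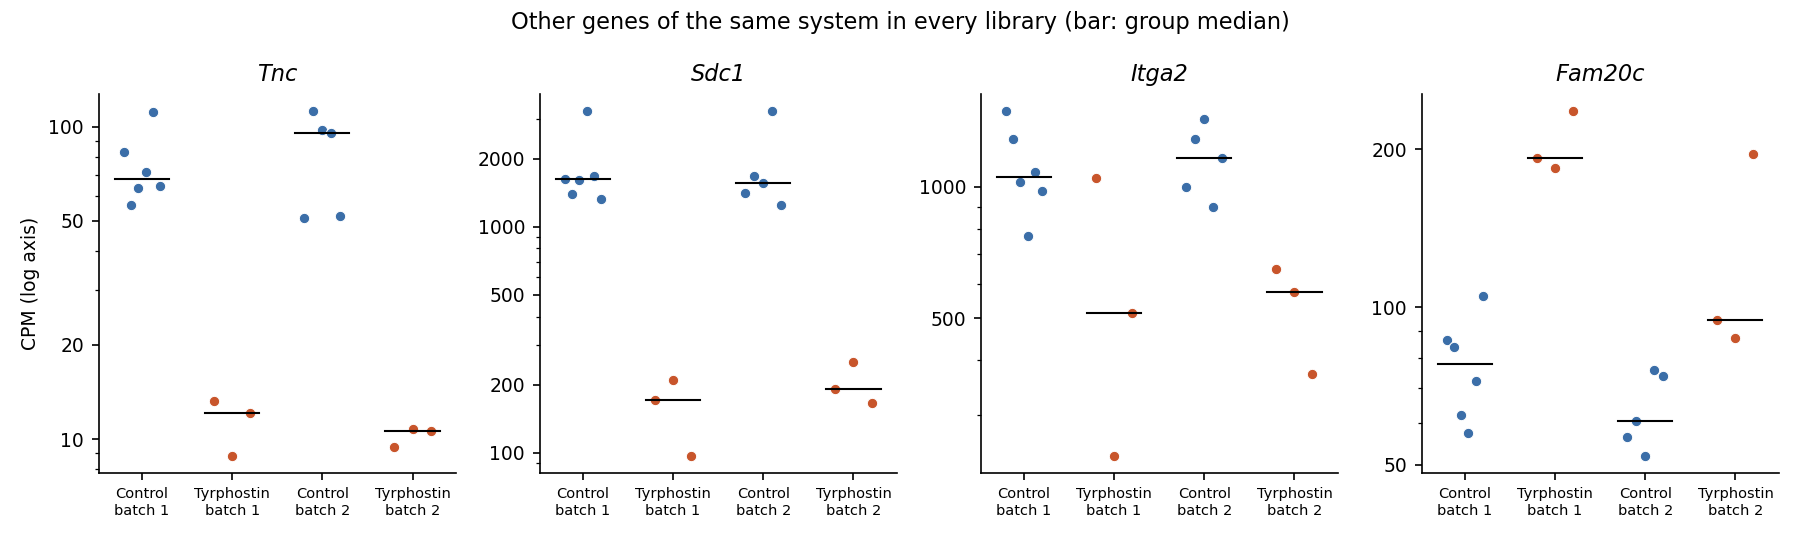
Levels of Tnc, Sdc1, Itga2 and Fam20c in each library (CPM, log axis), by treatment and batch, with 1 point a library and a bar at the group median. Tnc (8.86 to 13.2 CPM) and Sdc1 (97.2 to 251 CPM) of Tyrphostin libraries lie below every Control library, Tyrphostin 1 overlaps Control for Itga2, and Fam20c is higher with Tyrphostin.

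Of 24 genes of the adhesion machinery inside the cell 20 were tested, and 6 were called lower and 0 higher, beside 6.25% and 4.35% of all tested genes. There were 15 negative and 5 positive fold changes, with a median of -0.34 against 0.00 over all tested genes. Tns1, tensin-1, which links integrin tails to actin, held 4.78 to 37.7 CPM in Control and 2.80 to 9.01 CPM in Tyrphostin libraries, and fell by 1.32 ± 0.25 on the log2 scale (edgeR, adjusted p = 0.00122). The others were Actn1, an alpha-actinin (-0.96, adjusted p = 0.0223), Ptk2b, a focal adhesion kinase relative (-1.35, 0.0262), Zyx, zyxin (-0.59, 0.0379), Fermt2, kindlin-2, an integrin activator (-0.55, 0.0416), and Vasp, an actin regulator (-0.91, 0.0477), all from edgeR. Ptk2b was low, at 0.598 to 9.58 CPM in Control libraries, and its Tyrphostin values (0.622 to 4.58 CPM) lay inside that range. Only Tns1 of these 6 passed in all 27 other fits. The count of 6 was 1 with total-count scaling or without Tyrphostin 6, 2 without Tyrphostin 1, 2 or 4, and 3 without Control 4 or Tyrphostin 3, and it was 4 within batch 1 and 0 within batch 2, where 3.79% and 0.427% of all tested genes were called lower. Total-count scaling raised the median of all genes by 0.15 on the log2 scale. Between Control batches 17 of the 24 genes were tested. In batch 2, 4 were called lower and 1 higher, beside 6.77% and 7.26% of all tested genes. Tns1 was among those lower (-1.30, edgeR adjusted p = 0.00928).

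The genes whose log2 CPM followed Spp1 most closely over the 17 libraries were Tgfbi (Pearson r = 0.91), Egr2 (0.90), Sept9 (0.90), Nrg1 (0.89) and Mt2 (0.89). After the mean of each treatment and batch group was removed they were Tgm2 (0.91), Cpxm1 (0.90), Tor3a (0.89), Nrp1 (0.89) and Blvrb (0.89). No gene was in both sets. For Fn1 the closest were Baiap2 (0.88), Actn4 (0.88), Aebp1 (0.87), Ptprg (0.86) and Zfp703 (0.86), and after removal of group means Lipa (0.84), Il6st (0.83), Ptprg (0.82), Fam207a (0.81) and Gprc5b (0.79). Among the integrin genes, r with Spp1 was 0.54 for Itga9, 0.40 for Itga5, 0.37 for Itgb3, 0.31 for Itgb5, -0.04 for Itgav and -0.06 for Itgb1, and for Fn1 it was 0.02. After removal of group means it was 0.56 for Itga9 and -0.55 for Itgb1, the highest and lowest of the 7 genes. These correlations describe 17 libraries that share batches and depth, and they carry no test.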

How the data were processed

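Per the submitters' processing notes, reads were handled with STAR and HTSeq on GRCm38, and versions, annotation and strand setting are not given in the sources used here. The authors deposited raw counts per gene symbol, of which 3576 of 25198 rows held no count, so nothing had been normalized. Counts were tested in edgeR 4.0.16 (R 4.3.3): filterByExpr, TMM, robust quasi-likelihood F tests with batch as a term, within each batch, for the interaction, and between Control batches, with Benjamini-Hochberg adjustment over all genes tested and a threshold of 0.05. The SE is the log2 fold change divided by the square root of F, and approximate 95% intervals are 1.96 SE either way. PCR copies are not independent molecules, so the floor of 3 counts covers counting error only. Gene lengths were exon unions of GENCODE M21, and likeness used log2 CPM with a prior count of 2. All 9 genes were named whatever their values, with at most 6 genes a list of adjusted p under 0.05 and the 5 genes of highest correlation. The 9 genes and the 11 lists (131 genes) were chosen with earlier results of these data known. Alternatives were DESeq2 1.42.0, limma-voom (limma 3.58.1), other scalings, filters and covariates, Control libraries summed by the 5 sets that library names give, a replicate block, and omission of each library. Deviations from the treatment group's mean over both batches correlated at 0.47, 0.31 and 0.38 for same-numbered Control and Tyrphostin libraries 1 to 3. Batch was left in these deviations and all these libraries are of batch 1, so the correlations cannot show that the numbers pair them. The labels do not state pairs. Counts for the lists under these settings were added after seeing the data. The code was tested on simulated counts. Libraries were compared for possible duplicates: over 31 pairs within a group and batch, chi-square divided by its degrees of freedom was 11.8 to 84.1.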

Additional observations from a re-analysis of the deposited data

Results flagged for a closer look

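In 27 groups of 5 or 6 libraries searched, the gap of 1 library to the rest was large against the group's range 3 times on CPM and 2 times on log2 CPM, where chance gives about 1 in 20, or 1.35 of 27. Spp1 was at 302 CPM in Tyrphostin 5, above 1.15 to 59.3 CPM in the other 5 Tyrphostin libraries. That group spans both batches, and its batch 1 libraries held 1.15 to 2.02 CPM. On log2 CPM Spp1 was at 8.24 in Tyrphostin 5 against 0.652 to 5.90 in the others, where the gap was not large against the range. Fn1 was at 138 CPM in Control 1, above 75.0 to 94.0 CPM in the other 5 Control libraries of batch 1. Itgav was at 878 CPM in Control 4, below 2279 to 2489 CPM in those other 5.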

How the results depend on the processing

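The treatment call of Itga5 was kept in all 17 fits without 1 library and all 10 other fits (-2.29 to -1.99 on the log2 scale). The calls of Tnc, Sdc1, Itga2, Fam20c and Tns1 were kept in all 27. The count of 1018 genes called was 619 without a batch term, 678 with the log10 library total as covariate and 624 with the replicate block. For numbers 4 to 6, which cross batches, deviations of same-numbered samples correlated at 0.01, -0.13 and -0.06. Batch was left in these deviations too, so they do not tell whether the numbers mark pairs. Within batch 1 the block gave 848 genes against 634, and among the genes studied it changed the calls of Fn1 and Itgav alone. Leaving out 1 library gave 394 to 687 genes in batch 1 (Tyrphostin 2, Control 6) and 11 to 221 (Tyrphostin 6, Control 7) in batch 2, against 634 and 61. Batch 2 gave 303 in DESeq2 and 222 without a filter, the interaction 79 without a filter, and the Control batches 1473 in DESeq2 against 937. With the longest transcript as length, Control medians were 9.02 for Fn1 and 323 for Itgav. With Spearman's rho the 5 closest genes shared 0 and 2 for Spp1 and 2 and 2 for Fn1 with those of Pearson's r.

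Signs changed only where no call was made, and for Spp1 only in the interaction. Itgb1 ranged from -0.022 (without Control 7) to 0.24 over fits without 1 library and was -0.073 with summed sets. Itgb5 became 0.35 with the block. Without 1 library, Itgb3 ranged from -0.67 to 0.25 and Itgb5 from -0.23 to 0.24 in batch 1, and Fn1 from -0.64 to 0.070 and Itgb1 from -0.27 to 0.30 in batch 2. Itgb1 in batch 2 was also 0.066 with total-count scaling and 0.13 in limma-voom. The interaction ranged from -0.13 (without Tyrphostin 5) to 2.26 for Spp1, from -0.52 to 0.40 for Itgav (0.53 in limma-voom), from -0.15 to 0.48 for Itga9 and from -0.46 to 0.10 for Itgb1. Between Control batches Itga9 ranged from -0.22 to 0.094 and was 0.15 with total-count scaling. Causes were not tested. Depth limits Itga4 and Itgb3 most.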
